A study of Homo sapiens with 4 samples.

Results

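The effect of losing YAP and TAZ in unstimulated KGN cells was described as the difference between 2 of the 4 arrays of the series, labelled KGN-siYT and KGN-siNC, over all 17687 genes that a probe set named on its own. KGN is a human granulosa cell line established from an ovarian granulosa cell tumour. In siNC the cells received 10 nM control siRNA, and in siYT they received siRNAs against YAP and TAZ at 5 nM each. After 48 h both were given fresh medium without 8Br-cAMP, a form of cyclic AMP that enters cells, and total RNA was taken 24 h later for a Clariom S Human array. All cultures were grown in DMEM/F12 with 10% fetal bovine serum. The other 2 arrays had the same siRNAs with 0.5 mM 8Br-cAMP in the fresh medium. Each group was 1 array, so no difference below has a replicate check, no test was possible, and genes are called by size alone. Both siRNAs were given together, so the shares of YAP and TAZ cannot be told apart. The sources used here gave neither the siRNA sequences nor the number of cultures behind each array.

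YAP and its paralogue TAZ are transcriptional coactivators without a DNA-binding domain of their own, and they act mostly through the TEAD factors. The Hippo kinases MST and LATS phosphorylate both, which holds them in the cytoplasm, while cell spreading, stiff matrix and actin tension favour their entry into the nucleus. Their targets include the matricellular proteins CCN1 and CCN2 and genes of cell proliferation. Granulosa cells surround the oocyte, multiply as the follicle grows and then turn to steroid synthesis, which gonadotropins drive through cyclic AMP.

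Levels are the deposited log2 signals, written in the order siNC and siYT, and a difference is siYT minus siNC on the log2 scale. A gene was called when the size of its difference was 1 or more (2-fold) and its higher value reached 6.22, the median of the gene values on both arrays. A level counted as above background when it exceeded the 95th percentile of the 612 negative control probe sets of its array, 6.94 for siNC and 7.29 for siYT. Where 1 value did not, the fold is given as a lower bound against that limit, or against the value itself where that was higher. No fold is given where neither did or where that bound is under 1. Deposited values ran up to 19.35, past the 16 that a 16-bit scanner can give on a log2 scale. A rescaling beyond what the labels describe is therefore possible, and a fold is then a fold in deposited units. By this limit 7689 genes (43.5%) were above background in siNC and 7130 (40.3%) in siYT, and 6795 in both.

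The negative control probe sets show how far unrelated signals can lie apart on these 2 arrays. Their differences had a standard deviation of 1.45 and a median of 0.086, and 65 of 612 (10.6%) met the rule used for genes. Of the 87 that reached the level filter on either array, 74.7% were called, and of the 9400 genes that reached it 28.1%. The filter takes the higher of the 2 values, while the median control lay at 3.63 in siNC and 3.67 in siYT. A control that reached it through 1 array alone differs widely by that selection, so the 2 shares cannot be compared. The control that lay farthest apart differed by -8.06. Few controls were bright on both arrays: 8 were above background in siNC and siYT, and 5 of these differed by at least 1. With 1 array per group, a large difference of a single gene cannot be told apart from such scatter on these arrays alone. The 4 hybridisation controls, which are added to the labelled sample, differed by 0.081 to 0.26. The positive control probe sets had a median difference of -0.36, below the 0.022 of all genes.

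**Figure D1:**
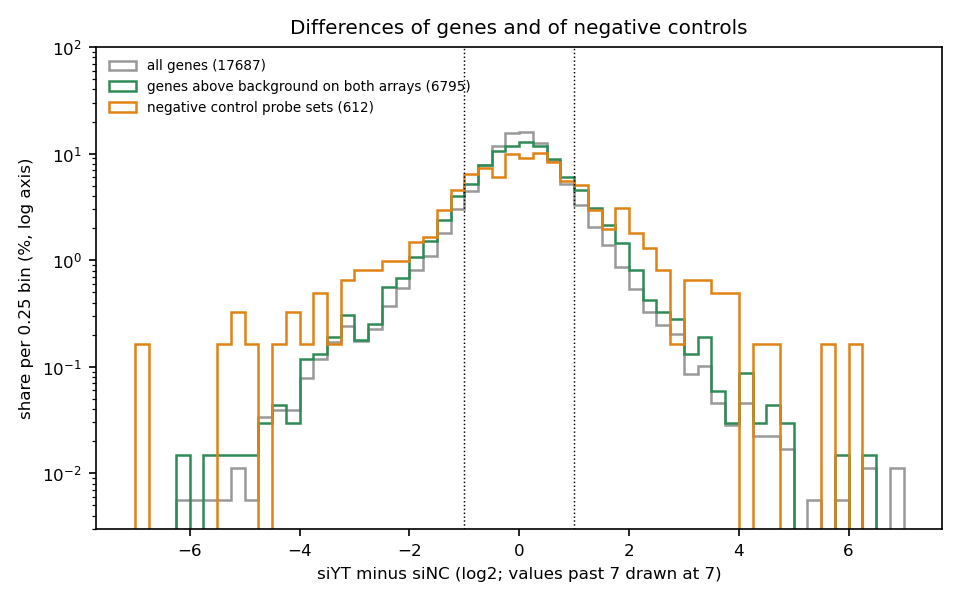
Share of genes or probe sets (%, log axis) in bins of the siYT minus siNC difference (log2), for all genes, for genes above background on both arrays and for negative control probe sets. The 612 negative controls spread past the 2-fold limits (dotted) on both sides, and values past 7 are drawn at 7.

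The targeted genes were lower on the siYT array. YAP1, which encodes YAP, was at 9.48 and 6.80, at least 4.57-fold lower. The TAZ gene, WWTR1, was at 7.58 and 5.45, at least 1.22-fold lower. Both siYT values lay under the background limit, so the remaining level of either RNA is not known from these data. Of the TEAD factors and their vestigial-like cofactors, VGLL3 was at 10.82 and 8.00, 7.08-fold lower. TEAD4 was at 6.73 and 3.95, lower in siYT but above background on neither array. TEAD1, at 11.08 and 10.60, and TEAD3, at 7.43 and 7.75, differed by less than 2-fold. In this list of 10 factors 4 were called lower, the 2 targets included, and 0 higher.

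The Hippo kinases themselves differed by less than 2-fold. LATS1 was at 10.47 and 10.85, LATS2 at 9.04 and 8.22, STK3 (MST2) at 10.42 and 10.28 and STK4 (MST1) at 8.28 and 8.00. The 5 of 20 pathway members called lower lay upstream of the kinases. AJUBA, a LIM protein that binds LATS, was at 9.51 and 7.34, 4.48-fold lower. The scaffold WWC1 (KIBRA) was at 11.34 and 9.61, 3.33-fold lower and its relative WWC2 at 9.02 and 7.60, 2.66-fold lower. NF2, which encodes merlin, was at 8.77 and 7.43, 2.53-fold lower, and the FERM protein FRMD6 at 11.50 and 10.16, 2.54-fold lower. FAT1, an atypical cadherin, was the 1 member called higher, at 13.43 and 14.97, 2.91-fold higher.

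Over the whole array 2637 genes were called, 14.9% of all 17687. Of these, 1344 were higher (7.6%) and 1293 were lower (7.31%). Of the 9400 genes that reached the level filter, 14.3% were called higher and 13.8% lower. List counts below are over all measured members, whether or not these reached the filter. Their base is therefore the 7.6% and 7.31% over all genes. Only members that reached the filter could be called. Lists differ in how many did so, 14 of 34 in the Wnt list and 23 of 25 in the lysosomal list. A list with counts near its base is not set apart from other genes. The median difference of all genes was 0.022, with an interquartile range from -0.41 to 0.46. Among called genes, 931 higher and 782 lower ones were above background on both arrays. A further 238 higher ones exceeded it in siYT alone, and 402 lower ones in siNC alone. The remaining 175 higher and 109 lower ones exceeded it on neither. By at least 3 (8-fold), 70 genes were higher and 132 lower, and by at least 4 (16-fold), 25 and 27.

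**Figure D2:**
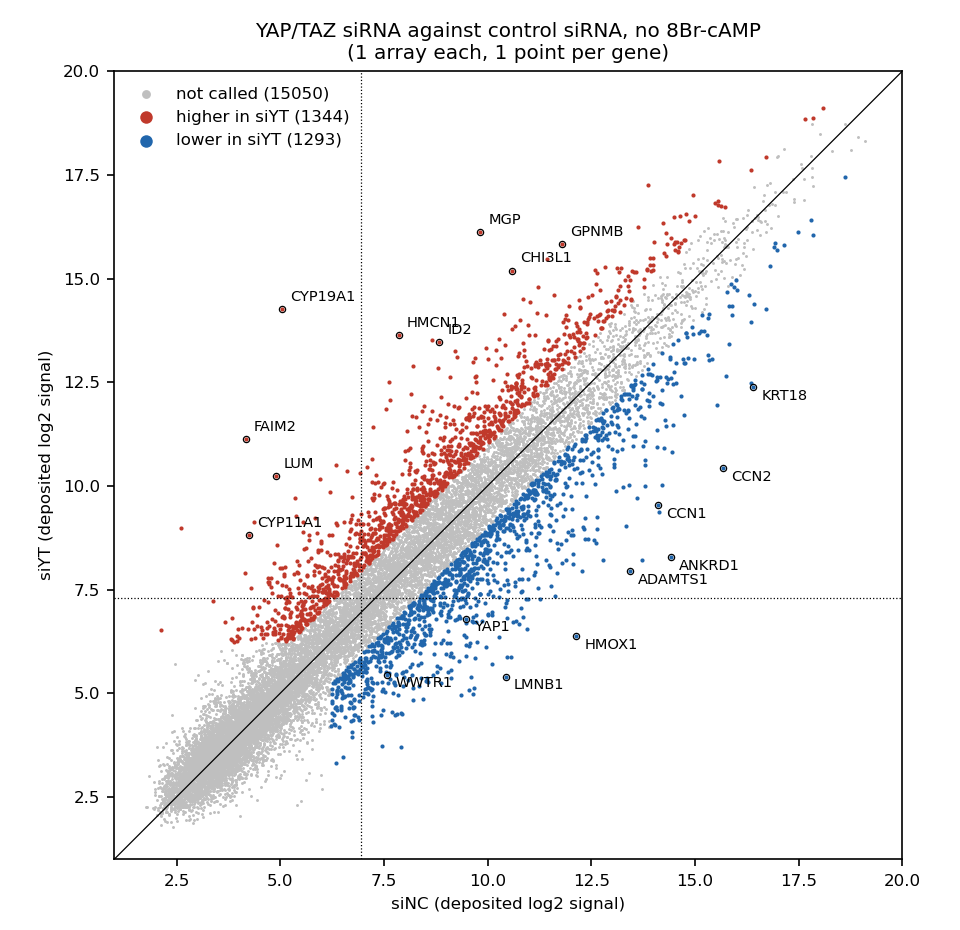
Level of each of the 17687 genes in siNC (x axis) and siYT (y axis) in deposited log2 signal, 1 array each, with genes called higher in red and lower in blue. Dotted lines are the background limits, and CYP19A1 lies far above the diagonal while ANKRD1, HMOX1 and CCN2 lie far below it.

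CYP19A1, which encodes aromatase, the enzyme that turns androgens into estrogens, had the largest difference upward, at 5.04 and 14.26, at least 159.7-fold higher. Next were FAIM2, an inhibitor of Fas signalling, at 4.17 and 11.13, at least 18.2-fold higher, and SLC14A1, a urea transporter, at 2.62 and 8.98, at least 4.11-fold higher. All 3 were under the background limit in siNC. Among genes above it on both arrays, MGP, an inhibitor of calcification, was at 9.83 and 16.12, 78.1-fold higher. HMCN1, a large extracellular fibulin, was at 7.86 and 13.63, 54.9-fold higher. TNFSF10, the death ligand TRAIL, was at 7.62 and 12.51, 29.5-fold higher. The adhesion protein CADM3 was at 8.66 and 13.52, 29.1-fold higher, and ANK3, which links membrane proteins to spectrin, at 8.20 and 12.90, 26.0-fold higher. ID2, an inhibitor of basic helix-loop-helix factors, was at 8.84 and 13.46, 24.6-fold higher. The glycoprotein CHI3L1 was at 10.59 and 15.19, 24.3-fold higher. The mucin-like PARM1 was at 7.64 and 12.08, 21.8-fold higher, TMOD1, which caps actin filaments, at 7.56 and 11.86, 19.8-fold higher, and LDB2, a LIM domain-binding cofactor, at 7.24 and 11.42, 18.2-fold higher. GPNMB, a glycoprotein of lysosomes and melanosomes, was at 11.78 and 15.83, 16.5-fold higher.

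At the lower end stood ANKRD1, an ankyrin repeat protein, at 14.42 and 8.28, 70.8-fold lower. HMOX1, which degrades heme, was at 12.13 and 6.37, at least 28.7-fold lower. IL7R, the interleukin-7 receptor chain, was at 13.73 and 8.21, 45.9-fold lower, and ADAMTS1, a secreted protease that cleaves versican, at 13.43 and 7.94, 44.9-fold lower. LMNB1, a protein of the nuclear lamina, was at 10.44 and 5.40, at least 8.85-fold lower. PTX3, a soluble pattern recognition protein of the cumulus matrix, was at 14.20 and 10.02, 18.1-fold lower. The keratin KRT18 was at 16.40 and 12.38, 16.2-fold lower. Genes of cell division made up much of the rest of the 25 lowest: CCNA2, DEPDC1, PBK, NDC80, RRM2, CEP55, FAM83D, CDC6, CDC20, TYMS, TTK, CDCA8 and KIF4A. The histone gene H3C2 and the pair FAM72A and FAM72B, also among the 25, have near-identical copies whose signals these probe sets may share, so their differences are uncertain.

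**Figure D3:**
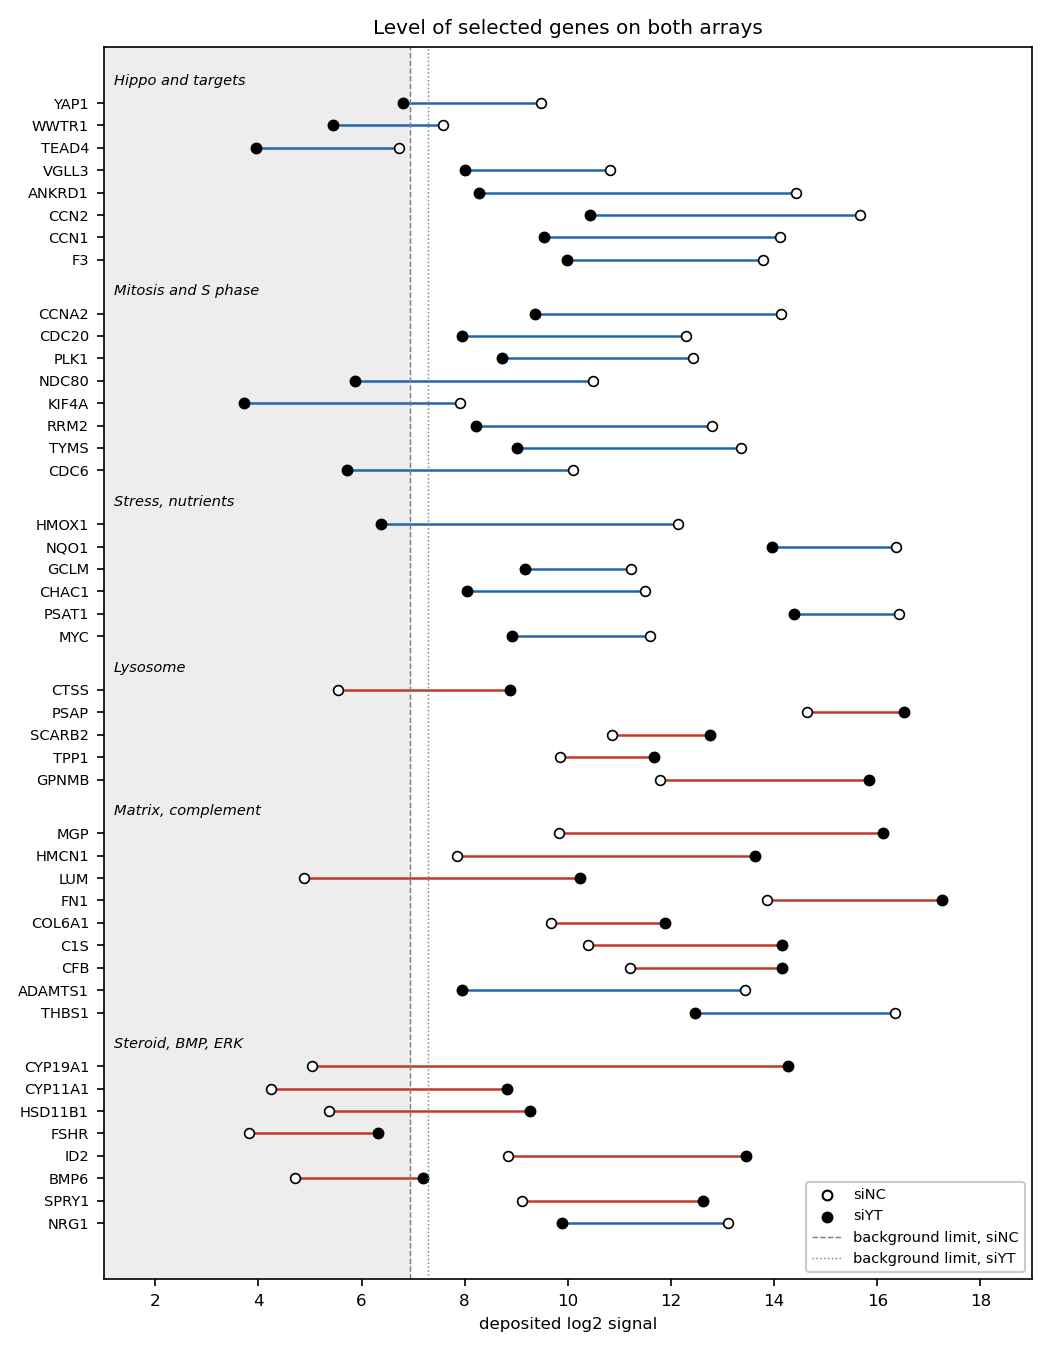
Deposited log2 signal of 44 selected genes in siNC (open) and siYT (filled), joined in red where siYT was higher and in blue where it was lower. Vertical lines are the background limits, and the shaded zone lies under both; several ends, such as YAP1 in siYT and CYP19A1 in siNC, lie in it.

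Known YAP and TAZ targets were measured next, since they report on the coactivators' activity. Of 19 measured members of a target signature, 10 were called lower and 1 higher, with a median difference of -1.05. CCN2, also called CTGF, was at 15.67 and 10.42, 38.0-fold lower, and CCN1, also called CYR61, at 14.10 and 9.53, 23.8-fold lower. F3, tissue factor, was at 13.79 and 9.99, 13.9-fold lower. GADD45A, a growth arrest protein, was at 11.89 and 8.69, 9.17-fold lower. The receptor kinase AXL was at 15.23 and 13.74, 2.81-fold lower, and the kinase NUAK2 at 7.45 and 6.09, at least 1.11-fold lower. FJX1, CRIM1 and IGFBP3 differed by -1.22, -1.18 and -1.05. RBMS3, an RNA-binding protein, was the member called higher, at 9.23 and 10.78, 2.93-fold higher.

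TEAD factors bind GGAATG, so the promoters of the CCN2 and ANKRD1 genes are shown, with each match to GGAATG on either strand in capitals. They are the RefSeq sequences of the 250 bases before the start on GRCh38.p14, written along the gene's strand; CCN2 lies at chr6:131951373-131951622 and ANKRD1 at chr10:90921088-90921337, both on the minus strand.
CCN2: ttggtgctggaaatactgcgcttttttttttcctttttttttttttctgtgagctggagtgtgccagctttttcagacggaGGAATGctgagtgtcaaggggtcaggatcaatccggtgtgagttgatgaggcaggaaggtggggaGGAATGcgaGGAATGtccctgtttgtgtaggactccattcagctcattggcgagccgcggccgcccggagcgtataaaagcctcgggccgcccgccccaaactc
ANKRD1: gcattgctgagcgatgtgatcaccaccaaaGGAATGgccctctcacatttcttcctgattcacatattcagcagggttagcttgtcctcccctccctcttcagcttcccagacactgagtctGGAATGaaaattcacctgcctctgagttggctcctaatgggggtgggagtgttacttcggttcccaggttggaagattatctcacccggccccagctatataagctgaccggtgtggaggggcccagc
The CCN2 promoter held 3 matches, which began 169, 104 and 95 bases before the start, and that of ANKRD1 held 2, at 220 and 128 bases. Over the 14250 genes of the array with a promoter in the RefSeq table, taken from 250 bases before to 50 after the start, 11.6% held the hexamer. The share was 11.99% for genes called lower and 11.1% for genes called higher. For the target signature, a short list made of known targets, it was 42.9% (6 of 14 promoters). A match is a description of letters, and TEAD sites in enhancers lie outside these windows.

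Among the AP-1 factors, which bind DNA together with TEAD factors at many enhancers, FOSL1 (FRA-1) was at 14.09 and 10.95, 8.85-fold lower and JUN at 9.94 and 8.69, 2.37-fold lower. JUND was at 7.10 and 10.47, 10.3-fold higher. The other 9 measured subunits were not called, and 7 of all 12 measured were above background on neither array.

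Genes called lower included many members of the cell division lists, from origin licensing to the mitotic spindle. In bulk RNA, fewer dividing cells and less of these RNAs per cell cannot be told apart. Over all cell cycle, replication and repair lists, 185 of 313 genes were called lower and 4 higher, 273 had a difference below 0, and the median was -1.57. Of all genes 7.31% were called lower, and of those that reached the level filter 13.8%. Entry into mitosis depends on cyclin B with CDK1, and 24 of 25 G2 and M cyclins and mitotic kinases were called lower and 0 higher, with a median of -3.34. CCNA2, cyclin A2, was at 14.14 and 9.37, 27.3-fold lower. CCNB1 was at 11.12 and 7.85, 9.64-fold lower, CCNB2 at 10.62 and 6.73, at least 10.1-fold lower and CDK1 at 10.48 and 6.82, at least 9.09-fold lower. The kinase AURKA was at 11.68 and 7.90, 13.7-fold lower, and PLK1 at 12.43 and 8.73, 13.0-fold lower. CDC20, an activator of the anaphase-promoting complex, was at 12.29 and 7.95, 20.2-fold lower, and its ubiquitin-conjugating enzyme UBE2C at 9.63 and 6.75, at least 5.04-fold lower. PTTG1, securin, was at 11.90 and 8.21, 12.9-fold lower.

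At the kinetochore, which ties chromosomes to the spindle, 29 of 34 genes were called lower and 0 higher, with a median of -2.37. NDC80, the microtubule-binding subunit, was at 10.48 and 5.88, at least 9.10-fold lower, and CENPF at 10.81 and 7.06, at least 11.5-fold lower. The checkpoint protein MAD2L1 was at 9.11 and 5.37, at least 3.53-fold lower. BUB3, which also works with BUB1 in the checkpoint, was at 14.20 and 12.32, 3.70-fold lower. Of the spindle motors and spindle proteins 21 of 23 were called lower and 0 higher, with a median of -3.18. KIF4A, a chromosome-bound kinesin, was at 7.91 and 3.71, at least 1.53-fold lower; KIF11, which pushes the poles apart, at 9.49 and 6.17, at least 4.58-fold lower; and PRC1, which bundles midzone microtubules, at 12.06 and 8.35, 13.0-fold lower. TPX2, an activator of Aurora A, was at 10.49 and 7.46, 8.20-fold lower. Condensin and cohesin followed with 10 of 19 called lower, among them SMC4 at 14.28 and 11.59, 6.43-fold lower, and SMC2 at 8.22 and 6.19, at least 1.91-fold lower.

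FOXM1 and B-MYB, the factors that switch these genes on with the MuvB complex, were also lower. FOXM1 was at 11.79 and 8.15, 12.5-fold lower, and MYBL2, which encodes B-MYB, at 9.71 and 5.84, at least 5.34-fold lower. The other 5 measured members of this list were not called, LIN54 for example at 7.59 and 7.29. MuvB binds TTTGAA or TTCGAA, and the factor NF-Y binds CCAAT. As examples, 4 promoters of mitotic genes named above are shown. All 4 held both motifs, against 49.3% of the promoters of the 3 mitosis lists, so they are not typical of these lists. Capitals mark either motif on either strand, in the 250 bases before the start on GRCh38.p14 from RefSeq, all on the plus strand. CCNB2 lies at chr15:59104896-59105145, CDC20 at chr1:43358731-43358980, PLK1 at chr16:23678639-23678888 and KIF4A at chrX:70289854-70290103.
CCNB2: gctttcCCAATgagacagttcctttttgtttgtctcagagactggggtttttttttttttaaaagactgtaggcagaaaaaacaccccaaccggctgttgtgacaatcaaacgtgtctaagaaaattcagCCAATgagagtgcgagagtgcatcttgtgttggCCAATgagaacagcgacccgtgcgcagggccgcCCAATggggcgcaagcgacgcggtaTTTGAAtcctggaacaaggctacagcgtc
CDC20: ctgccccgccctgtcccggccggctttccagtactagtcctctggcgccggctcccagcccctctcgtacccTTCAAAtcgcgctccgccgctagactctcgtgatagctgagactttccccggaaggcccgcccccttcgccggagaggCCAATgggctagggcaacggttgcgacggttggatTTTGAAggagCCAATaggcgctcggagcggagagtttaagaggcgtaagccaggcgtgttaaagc
PLK1: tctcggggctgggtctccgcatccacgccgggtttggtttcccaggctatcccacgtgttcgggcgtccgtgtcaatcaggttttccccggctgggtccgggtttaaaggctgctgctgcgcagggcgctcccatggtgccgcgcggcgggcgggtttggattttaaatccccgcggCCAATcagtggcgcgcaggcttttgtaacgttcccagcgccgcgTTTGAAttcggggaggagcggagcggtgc
KIF4A: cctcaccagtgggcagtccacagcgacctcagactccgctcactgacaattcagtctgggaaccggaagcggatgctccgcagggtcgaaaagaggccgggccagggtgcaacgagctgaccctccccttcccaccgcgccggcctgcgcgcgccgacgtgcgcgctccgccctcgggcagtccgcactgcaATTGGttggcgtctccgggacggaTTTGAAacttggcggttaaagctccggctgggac
CCNB2 held 5 matches, CDC20 4, and PLK1 and KIF4A 2 each. With 250 bases before and 50 after the start, TTTGAA or TTCGAA was in 13.4% of all promoters, 19.5% of those of genes called lower, 33.3% of those lower by at least 4-fold and 10.0% of those of genes called higher. In the 3 mitosis lists above it was in 63.8%. CCAAT was in 36.4% of all promoters and 69.6% of those of the 3 mitosis lists. Both motifs were in 5.52% of all, and in 49.3% of the 3 lists.

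In S phase, 10 of 16 genes of origin licensing were called lower, with a median of -2.07, and 22 of 34 of the replication fork, with a median of -1.87; 0 and 0 were higher. CDC6, which loads the helicase, was at 10.10 and 5.71, at least 6.99-fold lower. The helicase subunit MCM3 was at 9.49 and 6.35, at least 4.57-fold lower, and MCM7 at 11.53 and 9.47, 4.17-fold lower. GMNN, geminin, which blocks relicensing, was at 9.71 and 7.13, at least 5.34-fold lower. At the fork, CDC45 was at 9.11 and 5.57, at least 3.52-fold lower, TOP2A at 12.34 and 8.96, 10.4-fold lower, and PCNA at 12.67 and 10.87, 3.47-fold lower. For the supply of nucleotides 17 of 24 genes were called lower. RRM2, the ribonucleotide reductase subunit of dividing cells, was at 12.79 and 8.21, 23.8-fold lower, TYMS, thymidylate synthase, at 13.35 and 9.02, 20.1-fold lower, and TK1 at 11.19 and 8.13, 8.35-fold lower. CTPS1, which makes CTP, was at 10.94 and 7.28, at least 12.5-fold lower. RRM2B, the p53-dependent ribonucleotide reductase subunit, was the 1 member called higher, at 10.36 and 11.92, 2.95-fold higher.

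The G1 and S regulators gave 13 of 22 lower and 0 higher. CDK6 was at 8.89 and 6.22, at least 3.02-fold lower, CDK2 at 10.61 and 8.30, 4.95-fold lower, and CCNE2 at 8.18 and 5.45, at least 1.85-fold lower. RB1, which holds E2F factors in check, was at 11.87 and 10.46, 2.67-fold lower. CCND1, cyclin D1, at 12.92 and 12.68, was not called. Of 7 CDK inhibitors, CDKN1B (p27) was at 8.85 and 10.04, 2.28-fold higher, and CDKN1A (p21), at 13.30 and 14.15, was not called; CDKN3, a phosphatase that acts on CDK2 and peaks in mitosis, was at 11.40 and 8.21, 9.14-fold lower. Of 21 p53 targets 2 were called higher and 2 lower: TP53INP1 was at 5.41 and 8.18, at least 2.35-fold higher, SESN1 at 7.31 and 8.69, 2.60-fold higher, SESN2 at 9.31 and 8.12, 2.27-fold lower, and PMAIP1 (NOXA) at 9.61 and 7.83, 3.42-fold lower. BID and APAF1 were the other 2 members of the 24 BCL2 family, caspase and IAP genes called lower, beside PMAIP1, with differences of -1.23 and -1.12, and 0 were higher.

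In DNA repair, 13 of 18 genes of homologous recombination and the Fanconi pathway were called lower, with a median of -1.64. FANCI was at 7.76 and 4.48, at least 1.38-fold lower, and the exonuclease EXO1 at 9.09 and 5.90, at least 3.48-fold lower. Other repair genes gave 9 of 29 lower, with a median of -0.47; the checkpoint kinase CHEK1 was at 10.16 and 7.72, 5.40-fold lower, and PRKDC, the DNA-dependent kinase of end joining, at 11.96 and 10.18, 3.42-fold lower. Of the histone chaperones and DNA methylation genes 10 of 14 were called lower. HJURP, which loads the centromeric histone, was at 12.56 and 8.70, 14.6-fold lower, UHRF1, which recruits DNMT1 to hemimethylated DNA, at 8.92 and 6.28, at least 3.09-fold lower, and EZH2 at 9.67 and 8.30, 2.58-fold lower.

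Lists of ribosome biogenesis, NRF2 targets and ATF4 targets each held 10 or more members called lower. MYC was at 11.59 and 8.91, 6.41-fold lower. In its list of ribosome biogenesis genes 10 of 18 were called lower, 0 higher and 8 not called, with a median of -1.17. NOLC1 was at 12.24 and 10.31, 3.80-fold lower, NOP16 at 9.43 and 7.82, 3.04-fold lower, and NPM1 at 13.97 and 12.68, 2.44-fold lower. The NRF2 targets, which defend against oxidants, gave 10 of 22 lower, 0 higher and 12 not called, with a median of -0.98. Besides HMOX1, NQO1 was at 16.36 and 13.96, 5.29-fold lower. GCLM, the modifier of glutathione synthesis, was at 11.22 and 9.16, 4.17-fold lower, and SLC7A11, the cystine importer, at 14.22 and 11.97, 4.75-fold lower. The thioredoxin reductase TXNRD1 was at 16.01 and 14.73, 2.42-fold lower. NFE2L2, which encodes NRF2 itself, was at 11.73 and 11.74 and was not called.

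ATF4 drives amino acid import and synthesis when amino acids run short. Of its targets 11 of 23 were called lower, 2 higher and 10 not called, with a median of -0.67. CHAC1, which degrades glutathione, was at 11.51 and 8.05, 10.9-fold lower. In serine synthesis PSAT1 was at 16.43 and 14.38, 4.14-fold lower, and PHGDH at 12.36 and 10.69, 3.20-fold lower. ASNS, asparagine synthetase, was at 14.00 and 12.16, 3.58-fold lower, and STC2, stanniocalcin 2, at 14.30 and 11.45, 7.23-fold lower. The amino acid carriers SLC7A1, SLC1A5 and SLC7A5 differed by -1.47, -1.34 and -1.12. DDIT4, an inhibitor of mTORC1, was at 13.10 and 14.57, 2.76-fold higher. ATF4, at 13.28 and 13.15, was not called. Of 16 tRNA synthetases 2 were called lower, FARSB and KARS1, by -1.78 and -1.30.

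Lysosomal genes had the largest share called higher of the 70 lists, which were chosen with earlier results of these data known. Of 25 measured, 16 were called higher and 0 lower, with a median of 1.32, and 23 of the 25 reached the level filter. Of all genes 7.6% were called higher, and of those that reached the filter 14.3%. CTSD, the aspartic protease cathepsin D, was at 16.72 and 17.94, 2.32-fold higher, and CTSB, the cysteine protease cathepsin B, at 15.55 and 16.88, 2.52-fold higher. PSAP, which yields the saposins, was at 14.63 and 16.51, 3.69-fold higher, and SCARB2, which carries glucocerebrosidase to the lysosome, at 10.86 and 12.76, 3.72-fold higher. The peptidase TPP1 was at 9.85 and 11.66, 3.50-fold higher. The membrane protein LAMP1 was at 11.44 and 12.95, 2.86-fold higher, and LAMP2 at 12.17 and 13.49, 2.49-fold higher. CTSS, cathepsin S, was at 5.54 and 8.89, at least 3.84-fold higher. CD68, also a lysosomal membrane protein, was at 10.77 and 12.69, 3.80-fold higher. The regulators TFEB and MITF were not called, and TFEB, at 2.55 and 2.77, was not above background on either array. In the endoplasmic reticulum 7 of 21 chaperones and unfolded protein response genes were called higher and 0 lower, with a median of 0.65. Of the disulfide isomerases, PDIA3 was at 14.85 and 16.39, 2.91-fold higher, PDIA6 at 14.51 and 15.70, 2.28-fold higher, and PDIA4 at 10.92 and 12.01, 2.13-fold higher. The stress sensor ERN1 (IRE1) was at 7.80 and 9.47, 3.18-fold higher. HSPA5 (BiP), at 15.81 and 16.12, was not called.

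Extracellular matrix genes leaned the other way from the cell cycle. Over the matrix lists 40 of 137 genes were called higher and 12 lower, with a median of 0.34. Of all genes 7.6% were called higher and 7.31% lower, so the count called lower lies near its base. Among all genes that reached the level filter the shares were 14.3% and 13.8%. Fibrillar and associated collagens gave 7 of 16 higher and 0 lower. Of collagen VI, COL6A1 was at 9.67 and 11.89, 4.65-fold higher, and COL6A2 at 10.38 and 11.59, 2.31-fold higher. COL5A1, which limits fibril width, was at 8.84 and 10.32, 2.78-fold higher, and COL1A2 at 12.88 and 14.22, 2.53-fold higher; its partner COL1A1, at 13.27 and 13.38, was not called. Collagen-modifying enzymes gave 5 of 15 higher and 0 lower, led by P4HA1, a prolyl hydroxylase, at 12.84 and 15.27, 5.42-fold higher, and PLOD1, a lysyl hydroxylase, at 11.87 and 14.03, 4.47-fold higher.

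Adhesive glycoproteins gave 9 of 25 higher and 2 lower, with a median of 0.80. FN1, fibronectin, was at 13.87 and 17.25, 10.4-fold higher. LTBP1, which binds latent TGF-beta, was at 8.69 and 10.58, 3.70-fold higher. MFAP4, a microfibril protein, was at 9.22 and 13.26, 16.4-fold higher, and FBN1, fibrillin, at 11.17 and 12.57, 2.63-fold higher. THBS1, thrombospondin 1, which is also known as a YAP target, stood against these at 16.35 and 12.47, 14.7-fold lower. The small proteoglycan LUM (lumican) was at 4.89 and 10.23, at least 9.78-fold higher, and DCN (decorin) at 5.84 and 9.23, at least 4.87-fold higher. They were the 2 of 12 in their list that were called. In the basement membrane 4 of 18 were higher and 1 lower. NID2 was at 5.92 and 8.42, at least 2.78-fold higher, and its paralogue NID1 lay the other way, at 10.39 and 8.59, 3.48-fold lower. The laminin chains LAMB1 and LAMC1 were not called.

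Of 21 matrix proteases and inhibitors 4 were called higher, 5 lower and 12 not, and 14 had a difference below 0, with a median of -0.26. MMP2, gelatinase A, was at 12.59 and 15.20, 6.13-fold higher, MMP14, which activates it, at 9.80 and 11.88, 4.22-fold higher, and MMP16 at 7.70 and 9.95, 4.76-fold higher. The inhibitor TIMP1 was at 14.53 and 15.89, 2.58-fold higher. The 5 called lower were ADAMTS genes. Besides ADAMTS1, ADAMTS12 was at 10.48 and 7.74, 6.65-fold lower, and ADAMTS9 at 7.87 and 6.64, at least 1.496-fold lower. ADAMTS5 was above background on neither array, and ADAMTS6 just above it in siNC alone. ADAMTS4, at 3.67 and 3.70, was not called. The coagulation and plasminogen system gave 2 of 14 higher and 4 lower. PLAU, urokinase, was at 12.62 and 8.62, 15.97-fold lower, and PLAT, tissue plasminogen activator, at 10.74 and 8.45, 4.89-fold lower. TFPI, the inhibitor of tissue factor, was at 13.38 and 15.05, 3.19-fold higher, while F3 itself was lower, as given above. Complement genes gave 7 of 16 higher and 0 lower, with a median of 0.90. C1S, a protease of the classical pathway, was at 10.39 and 14.15, 13.6-fold higher, and its partner C1R at 6.53 and 9.13, at least 4.56-fold higher. CFB of the alternative pathway was at 11.20 and 14.16, 7.76-fold higher, and C3, the common component, at 14.79 and 16.56, 3.42-fold higher. C7, a component of the membrane attack complex and among the 25 highest differences, was at 2.14 and 6.53, higher in siYT but above background on neither array.

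**Figure D4:**
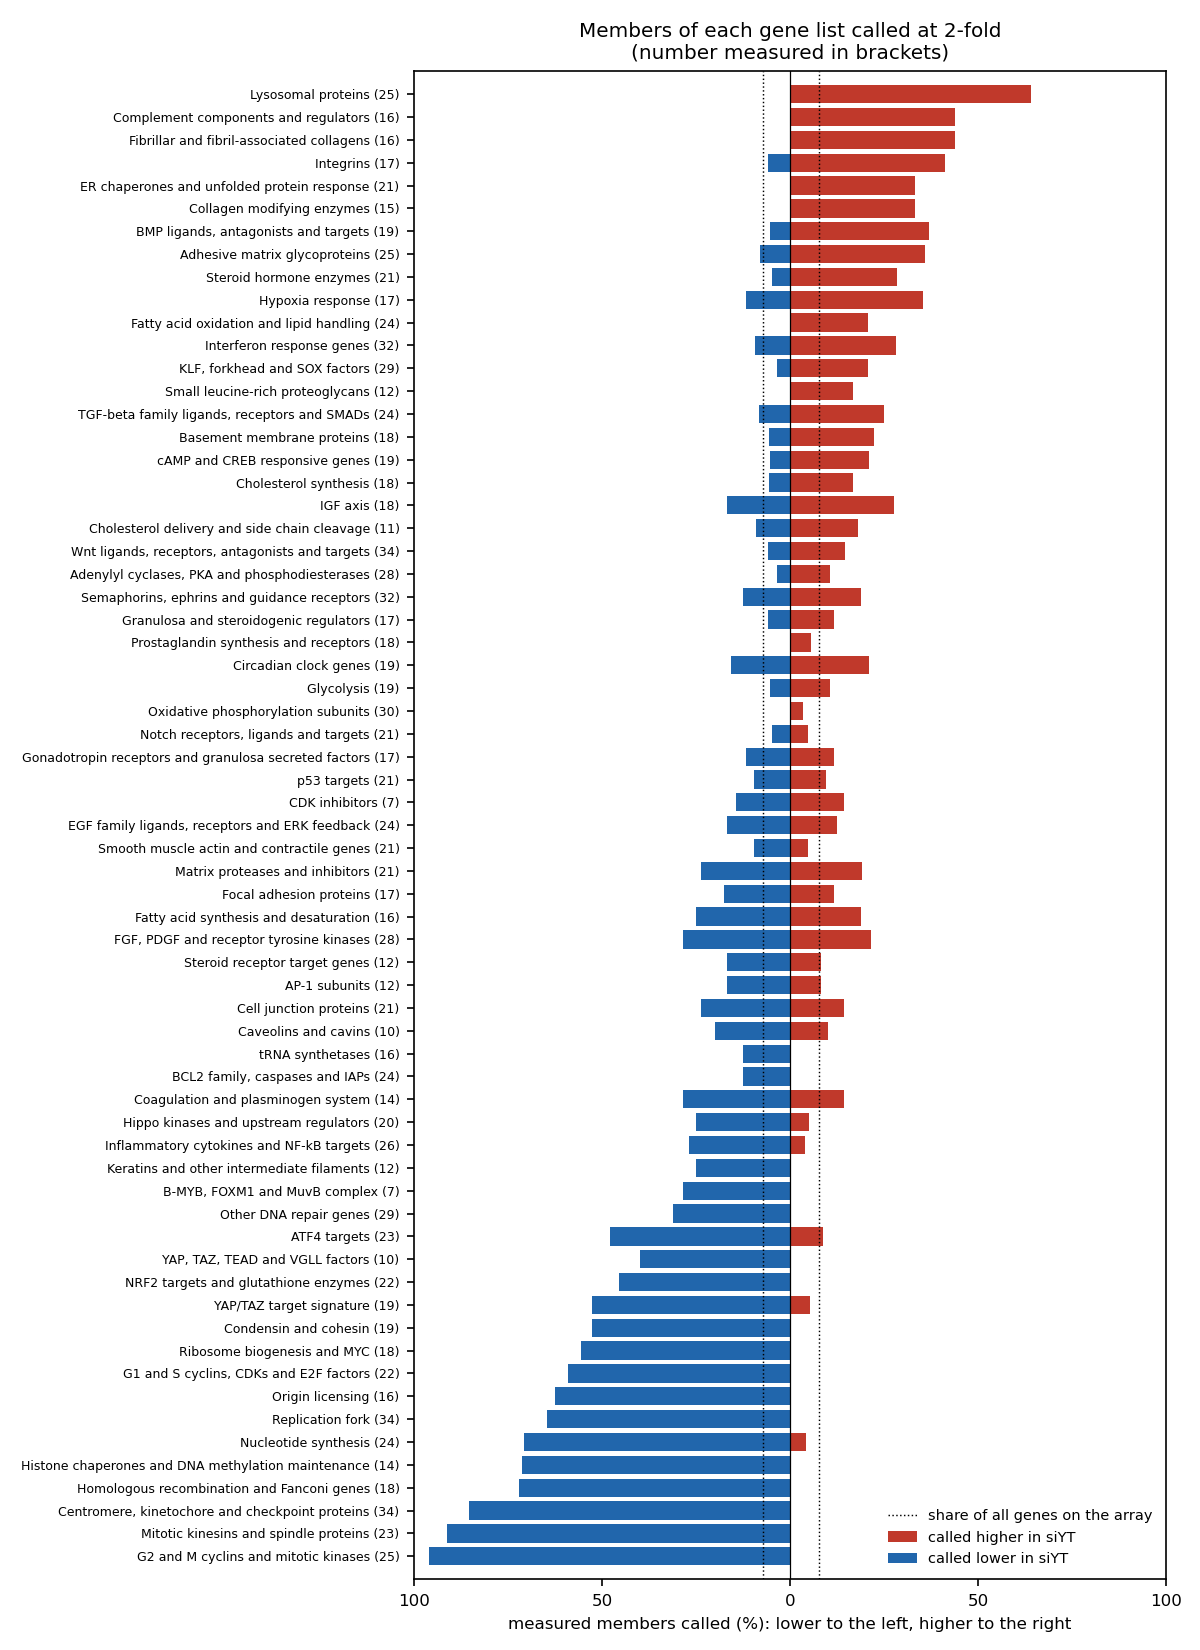
Share of measured members of each gene list (%) called lower (blue, to the left) or higher (red, to the right) in siYT against siNC, with the number measured in brackets. The lists of cell type markers are not drawn. Dotted lines are the shares over all genes, 7.31% lower and 7.6% higher; the lysosomal list is at the top and 3 mitosis lists are at the bottom.

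Tension through actin governs YAP and TAZ, and the cytoskeleton and adhesion genes showed members on both sides. Over these lists 14 of 98 were called higher and 16 lower, with a median of -0.01. Of all 17687 genes 7.6% were called higher and 7.31% lower. Of those that reached the level filter it was 14.3% and 13.8%, but the 98 include members that did not reach it. Among 21 contractile genes, CNN1 (calponin) was at 9.57 and 7.08, at least 4.83-fold lower, TAGLN (transgelin) at 9.82 and 7.77, 4.15-fold lower, and MYLK, myosin light chain kinase, at 10.76 and 12.27, 2.85-fold higher. ACTA2, smooth muscle actin, at 11.08 and 11.04, and MYH9, at 13.63 and 13.55, were not called. Of the contractile genes 1 was called higher and 2 lower. At focal adhesions 2 of 17 were higher and 3 lower: ZYX (zyxin) was at 11.96 and 10.62, 2.53-fold lower, PXN (paxillin) at 12.77 and 11.55, 2.32-fold lower, and the LIM protein FHL2 at 13.77 and 11.65, 4.34-fold lower; LIMS1 (PINCH) was at 10.30 and 11.72, 2.68-fold higher. Integrins gave 7 of 17 higher and 1 lower. The collagen receptor ITGA11 was at 6.60 and 10.35, at least 10.6-fold higher, and ITGA2, another, at 9.91 and 11.57, 3.17-fold higher. ITGAV was at 10.53 and 12.02, 2.81-fold higher, and ITGB5, with which it forms a vitronectin receptor, at 11.44 and 12.85, 2.65-fold higher. ITGA6, a laminin receptor chain, was at 9.57 and 8.41, 2.23-fold lower. ITGB1, at 15.72 and 16.74, was called by a difference of 1.01, which was 0.97 after each array was centred on its median.

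Of 21 cell junction genes 3 were called higher and 5 lower. GJA1, connexin 43, which couples granulosa cells, was at 10.86 and 14.50, 12.5-fold higher. The cadherin CDH11 was at 11.88 and 14.12, 4.73-fold higher, and CDH2 at 13.00 and 14.11, 2.16-fold higher. CLDN11, a tight junction claudin, was at 15.74 and 12.65, 8.55-fold lower, OCLN at 10.68 and 9.58, 2.16-fold lower, and the desmosomal DSG2 at 10.29 and 9.06, 2.35-fold lower. The cadherin CDH6 was at 6.77 and 5.58, lower in siYT but above background on neither array, and GJC1, connexin 45, at 7.81 and 6.81, at least 1.43-fold lower. Of 12 keratins and other filament proteins 0 were higher and 3 lower, KRT18 and LMNB1 included. KRT80 was at 9.74 and 7.75, 3.99-fold lower, while VIM, vimentin, at 16.44 and 16.47, was not called. Of 10 caveolins and cavins 1 was higher and 2 lower; CAV1, at 14.67 and 13.83, was not called, and CAV2 was at 10.04 and 8.86, 2.27-fold lower.

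Steroid synthesis is the specialised task of granulosa cells. Steroid hormone enzymes gave 6 of 21 higher and 1 lower. Besides CYP19A1, HSD11B1, which regenerates cortisol, was at 5.38 and 9.27, at least 5.02-fold higher. STS, steroid sulfatase, was at 7.55 and 8.93, 2.60-fold higher, and AKR1C3 at 11.15 and 12.40, 2.37-fold higher. HSD17B1, which makes estradiol from estrone, at 4.68 and 4.53, was not above background on either array. In cholesterol delivery and side chain cleavage 2 of 11 were higher and 1 lower. CYP11A1, the side chain cleavage enzyme, was at 4.25 and 8.82, at least 3.66-fold higher, SCARB1, the HDL receptor, at 10.71 and 11.82, 2.16-fold higher, and SOAT1, which esterifies cholesterol, at 12.85 and 11.22, 3.10-fold lower. STAR, which moves cholesterol into mitochondria, at 9.84 and 10.38, was not called. HSD3B2 was at 4.17 and 5.80 and did not reach the level filter.

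Of the regulators of the granulosa lineage 2 of 17 were called higher and 1 lower. RUNX1 was at 12.78 and 13.97, 2.27-fold higher. GATA4 was at 9.88 and 10.90, a difference of 1.02 that was 0.97 after median centring. CITED2 was at 15.32 and 14.06, 2.40-fold lower. NR5A1 (SF-1), at 5.42 and 6.07, and FOXL2, at 4.13 and 4.19, were not above background on either array. Gonadotropin receptors and secreted factors gave 2 of 17 higher and 2 lower. FST, follistatin, was at 13.79 and 10.51, 9.71-fold lower, and FSTL3, its relative, at 7.93 and 5.48, at least 1.55-fold lower; both bind activin. INHBA, the activin subunit, at 11.36 and 11.09, was not called. FSHR, the FSH receptor, differed by 2.49, with levels of 3.82 and 6.31, but exceeded background on neither array.

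Genes that respond to cyclic AMP were examined because this pair had received no 8Br-cAMP. Of 19 known responders to cAMP and CREB 4 were called higher and 1 lower, with a median of 0.53. PPARGC1A, a coactivator of mitochondrial genes, was at 8.35 and 11.42, 8.40-fold higher, and the phosphodiesterase PDE7B at 5.55 and 9.13, at least 4.54-fold higher. RGS2 and PDE4B were called but exceeded background on neither array. NR4A1, at 5.35 and 5.87, and PTGS2, at 4.50 and 5.33, were not above background on either array. DUSP1, a MAP kinase phosphatase, was at 12.92 and 11.27, 3.15-fold lower. Of 28 adenylyl cyclase, PKA and phosphodiesterase genes 3 were higher and 1 lower, and PRKACA, a catalytic subunit of PKA, was at 9.77 and 11.06, 2.45-fold higher. Steroid receptor targets gave 1 of 12 higher and 2 lower, with SGK1, a kinase induced by steroids, at 13.51 and 11.19, 4.98-fold lower. The CREB motif TGACGTCA was in 3.38% of promoters of genes called higher, 4.61% of those called lower and 2.62% of all promoters. For AAGGTCA, bound by NR5A factors, the shares were 2.19%, 2.67% and 3.11%.

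BMP and TGF-beta signalling had members on both sides. BMP ligands, antagonists and targets gave 7 of 19 higher and 1 lower. BMP4 was at 11.66 and 13.38, 3.30-fold higher. The BMP targets ID2 and ID3 were higher, ID3 at 11.56 and 13.05, 2.80-fold higher, whereas ID1, at 10.10 and 9.90, was not called. The inhibitory SMAD6 was at 9.71 and 10.87, 2.24-fold higher, and SMAD7 at 7.58 and 9.75, 4.50-fold higher. TGF-beta family ligands, receptors and SMADs gave 6 of 24 higher and 2 lower. TGFBR2, the type II receptor, was at 12.57 and 14.06, 2.81-fold higher, and TGFBR1, the type I receptor, lay the other way at 10.99 and 9.40, 2.99-fold lower. SMURF2, a ubiquitin ligase for SMADs and receptors, was at 15.42 and 13.07, 5.09-fold lower.

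Of 24 genes of the EGF family and ERK feedback 3 were higher and 4 lower. NRG1, a ligand of ERBB3, was at 13.11 and 9.89, 9.32-fold lower, and ERBB3 at 8.44 and 4.86, at least 2.22-fold lower. Of the feedback inhibitors of ERK signalling, DUSP5 was at 11.82 and 9.26, 5.90-fold lower, SPRY1 at 9.10 and 12.62, 11.5-fold higher, and DUSP6, at 7.97 and 7.97, was not called. The immediate early gene EGR1 was at 5.44 and 7.91, at least 1.95-fold higher. Of the PDGF receptors, PDGFRA was at 7.27 and 9.81, 5.80-fold higher, and PDGFRB at 8.17 and 10.04, 3.66-fold higher. DDR1, a collagen receptor, was at 9.18 and 11.94, 6.76-fold higher. MET was at 12.88 and 11.14, 3.34-fold lower, ROR1 at 12.31 and 10.63, 3.21-fold lower, and the ligand FGF2 at 14.07 and 12.52, 2.93-fold lower. In this list of receptor kinases and ligands 6 of 28 were higher and 8 lower. GAS6, the ligand of AXL, was at 12.31 and 13.62, 2.48-fold higher, opposite to its receptor.

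Inflammatory cytokines gave 7 of 26 lower and 1 higher. IL6 was at 14.67 and 12.18, 5.61-fold lower, and CXCL8 at 15.34 and 13.04, 4.92-fold lower. CCL20 was at 9.03 and 6.22, at least 3.34-fold lower, and LIF at 9.05 and 7.73, 2.50-fold lower. IL1R1, the receptor, was at 7.48 and 9.44, 3.89-fold higher. Of 32 interferon response genes 9 were called higher and 3 lower, with a median of 0.36. Of the antigen presentation genes, HLA-C was at 12.72 and 14.72, 3.99-fold higher, HLA-E at 11.14 and 12.94, 3.48-fold higher, and B2M at 17.67 and 18.84, 2.26-fold higher. HLA genes resemble each other, and their probe sets may share signal. GBP2, a guanylate-binding protein, was at 8.15 and 12.22, 16.7-fold higher, and BST2 (tetherin) at 4.85 and 8.14, at least 2.29-fold higher. IFIH1, a sensor of double-stranded RNA, was at 9.34 and 10.53, 2.27-fold higher. The 3 called lower were OAS3, IFIT3 and USP18, with differences of -1.08, -1.04 and -1.29.

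In Wnt signalling 5 of 34 were called higher and 2 lower. The receptor FZD4 was at 8.29 and 9.95, 3.16-fold higher, FZD1 at 8.44 and 9.98, 2.91-fold higher, and LGR4 at 10.70 and 12.48, 3.43-fold higher. The antagonist SFRP4 was at 5.70 and 8.70, at least 3.38-fold higher, and DKK1 at 13.52 and 12.36, 2.23-fold lower. In Notch signalling 1 of 21 was called higher and 1 lower, HES1 and JAG1; HES1 exceeded background on neither array and JAG1, at 7.19 and 6.15, in siNC alone. Guidance genes gave 6 of 32 higher and 4 lower: SEMA7A was at 13.79 and 10.62, 9.01-fold lower, EPHA2 at 9.82 and 7.40, 5.35-fold lower, ROBO1 at 9.28 and 11.88, 6.09-fold higher, its ligand SLIT3 at 8.28 and 10.33, 4.13-fold higher, and UNC5B at 9.75 and 12.23, 5.58-fold higher. In the IGF axis 5 of 18 were higher and 3 lower. IGFBP2 was at 9.07 and 10.78, 3.28-fold higher, and IGFBP1 at 9.99 and 8.38, 3.06-fold lower. Among transcription factors, KLF5 was at 7.70 and 4.55, at least 1.33-fold lower, SOX4 at 7.36 and 10.09, 6.63-fold higher, and FOXO3 at 9.19 and 10.26, 2.09-fold higher, with 6 of 29 KLF, forkhead and SOX genes higher and 1 lower.

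Of 16 genes of fatty acid synthesis and desaturation 3 were called higher and 4 lower, with a median of 0.25. SCD, which makes monounsaturated fatty acids, was at 11.42 and 15.47, 16.5-fold higher, and FADS2, a desaturase of polyunsaturated ones, at 14.00 and 15.49, 2.82-fold higher. FASN, fatty acid synthase, was at 9.83 and 8.76, 2.10-fold lower, ACLY, which makes cytosolic acetyl-CoA, at 13.50 and 12.32, 2.28-fold lower, and ELOVL6 at 11.16 and 8.76, 5.28-fold lower. The acetyl-CoA carboxylase genes ACACA and ACACB were not called. Fatty acid oxidation and lipid handling gave 5 of 24 higher and 0 lower, with PLIN2, the coat of lipid droplets, at 6.18 and 8.81, at least 3.64-fold higher, and FABP3 at 7.27 and 9.70, 5.42-fold higher. Of 18 cholesterol synthesis genes 3 were higher and 1 lower; SREBF2 was at 9.65 and 11.27, 3.08-fold higher, and HMGCS1 at 8.73 and 7.68, 2.07-fold lower. Hypoxia response genes gave 6 of 17 higher and 2 lower, with a median of 0.48: CA12 was at 10.87 and 13.27, 5.26-fold higher, NDRG1 at 8.61 and 10.51, 3.72-fold higher, and EPAS1 (HIF-2 alpha) at 13.73 and 12.33, 2.63-fold lower. Oxidative phosphorylation subunits were close to level, with 1 of 30 called and a median of -0.19. Glycolysis genes gave 2 of 19 higher and 1 lower, and prostaglandin genes 1 of 18 higher and 0 lower. In the circadian clock 4 of 19 were higher and 3 lower: BHLHE40 was at 10.74 and 12.63, 3.70-fold higher, BHLHE41 at 11.05 and 12.85, 3.48-fold higher, NR1D1 at 7.29 and 8.87, 2.98-fold higher, and CRY1 at 8.06 and 6.24, at least 1.70-fold lower.

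The label was checked against markers of granulosa cells and of other cell types. Of 11 granulosa markers INHBA, FST, KRT18 and GJA1 were above background on both arrays and CYP19A1 in siYT alone, whereas 6 (FSHR, AMHR2, FOXL2, INHA, NR5A2 and WT1) were above it on neither. The defining granulosa factor FOXL2 was thus not measured above background in these cells. Of 10 theca and stromal fibroblast markers 3 were called higher, DCN, LUM and PDGFRA, and 0 lower; their part in the matrix differences was not tested. Of this list 4 were above background on neither array. Endothelial markers were above background on neither array in 8 of 8 cases, and epithelial ones in 8 of 10, with KRT7 and CLDN7 above it. Of 8 immune markers, 6 were above background on neither array, PTPRC (CD45) among them, and CD68 was the 1 called.

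The arrays with 8Br-cAMP gave a second pair with the same siRNAs, in another medium and with no array in common. With 8Br-cAMP 2025 of all 17687 genes were called (11.4%), 976 higher and 1049 lower. Of the genes called higher without it, 574 were also called higher with it, 42.7% of the first list and 58.8% of the second. For genes called lower the number was 641, 49.6% and 61.1%. The sign was the same in the other medium for 90.1% of the genes called higher and 92.3% of those called lower. The share of all genes with the same sign was not counted, so these shares have no base to be read against. The second pair is not a replicate of the first, and no difference between the media was tested.

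Several genes stood far apart without 8Br-cAMP and close together with it. In all 341 of the 1344 genes called higher and 271 of the 1293 called lower differed by less than 0.5 with 8Br-cAMP. How many of all genes did so was not counted, so these counts do not mark out a class of genes. GADD45A differed by -3.20 without and -0.069 with 8Br-cAMP. For SPRY1 the differences were 3.52 and -0.27, and for SEMA7A -3.17 and -0.16. ADAMTS1 stood at -5.49 and -0.77, where its levels with 8Br-cAMP were 10.03 after siNC and 9.26 after siYT. ID2 stood at 4.62 and 0.71, and NRG1 at -3.22 and -0.59. These genes were picked after their values were seen. CYP19A1 was called higher in both media. Its level in siNC was under the background limit without 8Br-cAMP, so its difference there is known only as a lower bound and is not set against that with 8Br-cAMP, which was 3.29, from levels of 14.26 after siNC and 17.56 after siYT.

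Of the 70 list medians, 14 were of opposite sign in the 2 media. The median of the G2 and M list was -3.34 without and -3.65 with 8Br-cAMP, and that of the lysosomal list 1.32 and 1.05. For complement it was 0.90 and 1.06. The interferon list had 0.36 and -0.67, the hypoxia list 0.48 and -0.30, and the ER chaperone list 0.65 and -0.12. The p53 target list had 0.27 and -0.48, oxidative phosphorylation -0.19 and 0.37, steroid receptor targets -0.40 and 0.20, and the FGF, PDGF and receptor kinase list -0.30 and 0.17. The last 7 pairs were of opposite sign. The other 7 such pairs were the epithelial markers, at 0.31 and -0.14, and 6 lists with a median under 0.1 in size in 1 of the media. With the same sign in both media, nucleotide synthesis had -1.76 and -0.95, the TEAD and VGLL list -0.36 and -1.16, and the B-MYB, FOXM1 and MuvB list -0.71 and -1.38.

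**Figure D5:**
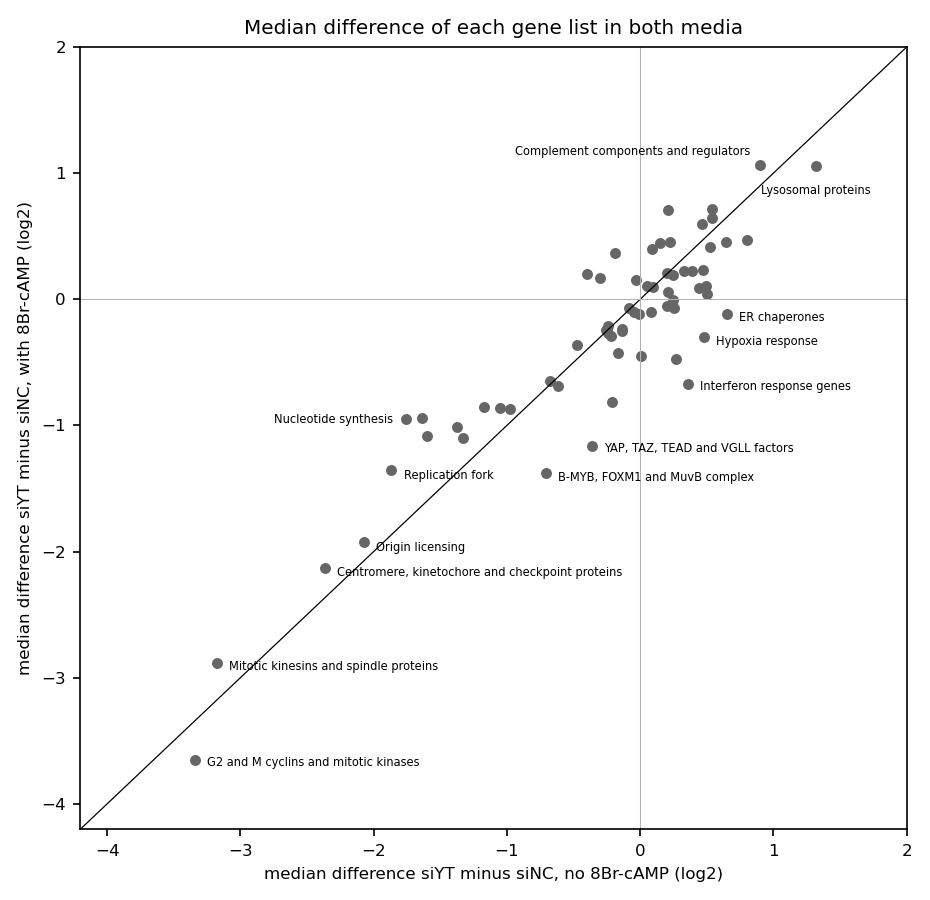
Median siYT minus siNC difference (log2) of each gene list without 8Br-cAMP (x axis) and with it (y axis), 1 point per list, with the line of equal values. The lists of cell type markers are not drawn. The mitosis lists lie at the lower left near the line, and the interferon, hypoxia and ER chaperone lists lie right of 0 on the x axis and under 0 on the y axis.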

How the data were processed

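Total RNA of KGN cells was labelled with biotin and hybridised to Clariom S Human arrays, 1 per group. Per the labels, the authors made the log2 values with RMA, run in Affymetrix Expression Console; the sources used here name no versions and no build of the probe annotation. RMA forces 1 distribution of probe signals on all arrays, so a shift of all RNA between cells would not be seen. The values were used as deposited. Of 24351 probe sets, 17709 named 1 gene and gave 17687 genes, with several probe sets averaged for 20 genes. Left out were 612 negative, 2197 positive and 94 other controls and 3739 unnamed transcript clusters. With 1 array per group no test, p-value or gene set test was run. The number of arrays limits the precision.

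The text names YAP1 and WWTR1, the 25 highest and 25 lowest called genes, the 12 highest and 12 lowest above background on both arrays, 15 genes called in opposite directions in the 2 media, and members of 70 gene lists, with counts over the list. One further list is not reported here. The members and lists were chosen with earlier results of these data known. Alternatives changed the level filter, the size threshold, the scaling (limma 3.58.1 in R 4.3.3 for quantile and cyclic loess), the offset and the choice of probe set. Counting was done in Python 3.11.15 with pandas 2.3.3 and was tested on simulated data. Promoters came from the RefSeq table (GRCh38.p14), matched by Entrez gene identifier for 14250 of 17687 genes.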

Additional observations from a re-analysis of the deposited data

Results flagged for a closer look

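A few genes were called in opposite directions by the siRNAs in the 2 media, 10 higher without and lower with 8Br-cAMP and 8 the other way. The 15 with the largest smaller difference are given here as siYT minus siNC (log2), first without and then with 8Br-cAMP. Each pair of groups is 1 array against 1, and the difference between the media was not tested.

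Higher without and lower with 8Br-cAMP were the following genes. TRIB2, a pseudokinase, stood at 3.66 and -1.18. HEXIM1, an inhibitor of the elongation factor P-TEFb, stood at 1.59 and -1.17, and the iron exporter SLC40A1 (ferroportin) at 1.55 and -1.17. PTGIS, prostacyclin synthase, stood at 1.17 and -1.85, and the inhibitory SMAD6 at 1.17 and -1.27. XAF1, an interferon-induced antagonist of XIAP, stood at 1.17 and -1.09. SESN1, a sestrin, stood at 1.38 and -1.03, PLEKHA6 at 1.28 and -1.03, and the ciliary GTPase ARL6 at 1.07 and -1.03. In siNC without 8Br-cAMP, TRIB2, SLC40A1, ARL6 and PLEKHA6 were not above background, at 6.21, 6.51, 6.53 and 6.81. The size of their differences without 8Br-cAMP is therefore uncertain. With 8Br-cAMP, ARL6 and PLEKHA6 were at 6.41 and 6.24 after siYT, under the background limit of 6.98 of that array.

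Lower without and higher with 8Br-cAMP were the others. CPM, a membrane carboxypeptidase, stood at -1.93 and 1.86, and the filopodial motor MYO10 at -1.79 and 2.38. AP1S3, an adaptor subunit, stood at -2.09 and 1.06, and SLC27A2, a fatty acid transporter and acyl-CoA synthetase, at -1.32 and 1.15. DIO2, which activates thyroid hormone, stood at -1.63 and 1.04, and HSD17B2, which oxidises estradiol, at -1.06 and 1.14. Without 8Br-cAMP, DIO2 and HSD17B2 exceeded background on neither array, and CPM, at 7.04 and 5.11, in siNC alone. With 8Br-cAMP, HSD17B2 was at 5.10 after siNC and 6.24 after siYT, under the limits of 6.53 and 6.98. It thus exceeded background on no array, and its opposite calls are uncertain.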

How the results depend on the processing

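The 1344 higher and 1293 lower calls followed the size threshold: at 1.5-fold there were 2412 higher and 2263 lower (4675 in all), and at 4-fold 291 higher and 360 lower (651 in all). The other alternatives left both counts within 1.5 times. They gave 1642 and 1561 with no level filter, 1169 and 1184 with the filter at the 95th percentile of the negative controls, 1134 and 1093 after adding 32 on the linear scale, 1257 and 1376 after median centring, 1269 and 1360 after cyclic loess, and 1324 and 1314 after quantile normalization. Of the 2637 calls, 2550 were also made after centring, 2562 after loess and 2596 after quantile normalization. No scaling shifted the median of all genes by over 0.1. No gene named or listed reversed. Of these 1322 genes, adding 32 took the call from 30, among them CDH6, GJC1, HMGCS1, GATA4, RGS2, PDE4B, HES1 and JAG1, and moved 10 list counts and 10 list medians. Those that lost their call under centring were GATA4, IFI6, IGFBP7, ITGB1, ITGB8, NDUFA5, SEMA4B and TGFBI. Medians of the EGF and ERK, glycolysis and immune marker lists lie so near 0 that their sign depends on the scaling. No paired analysis was possible because each group has 1 array and the labels carry no replicate numbers. For the same reason no replicate could be left out. Genes near background, 175 higher and 109 lower calls above it on neither array, are the least certain.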

Other observations

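Further genes among the 25 highest differences belong to none of the lists. ABCA8, a lipid transporter, was at 4.36 and 9.13, at least 4.55-fold higher. TMEFF2, a membrane protein with follistatin-like domains, was at 5.36 and 9.71, at least 6.79-fold higher. FPR3, a formyl peptide receptor, was at 5.95 and 10.17, at least 9.37-fold higher. FAXDC2, a relative of sterol hydroxylases, was at 6.34 and 10.50, at least 11.7-fold higher, and the Golgi-associated GASK1B at 8.81 and 12.85, 16.5-fold higher. At the lower end MARCHF4, a membrane ubiquitin ligase, was at 9.37 and 4.95, at least 4.21-fold lower. CEP55, which directs abscission, was at 9.66 and 5.12, at least 5.17-fold lower, FAM83D, a spindle protein, at 10.96 and 6.56, at least 12.7-fold lower, and DEPDC1 at 10.56 and 5.87, at least 9.65-fold lower. Outside the named genes, 1314 transcript clusters with no gene name reached the level filter, of which 144 were called higher and 157 lower in siYT.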
